A study of Mus musculus with 5 samples.

Results

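The expression of 10 genes of the extracellular matrix was followed through the tumors: the fibrillar collagen chains Col1a1, Col1a2 and Col3a1, the basement membrane chains Col4a1 and Col4a2, the fibril-associated chain Col9a1, and the glycoproteins Fn1, Sparc, Tnc and Postn. They were taken by symbol, and all 10 were found among the 31053 genes of each matrix. The tumors arose in mice of the strain FVB/N-Tg(MMTV-PyVT)634Mul/J, the MMTV-PyMT model, whose mammary epithelial cells carry polyoma virus middle T antigen under the mouse mammary tumor virus promoter. From 7 weeks of age the mice received 5 mg/kg of B20-4.1.1, an antibody that neutralizes VEGF-A, or of isotype control mouse IgG2a (clone C1.18.4) for 6 weeks. Viable DAPI- cells were profiled by droplet-based 3′ single-cell RNA-seq in 5 pools of 3 tumors, each from a single treatment, which gave 6 isotype and 9 B20-4.1.1 tumors. The tumor was the replicate. Each pool held 1 treatment, so no value within a pool compares the treatments, and treatment was also set against the spread between pools. Which B20-4.1.1 tumors were high or low in hypoxia is not in the labels, so these were not compared.

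Matrix proteins are secreted and assemble outside the cell. Type I and III collagens form the fibrils of connective tissue, are made mainly by fibroblasts, and stiffen breast tumors as they accumulate, whereas type IV collagen forms the sheet-like network of basement membranes under epithelium and around vessels. Fibronectin, tenascin-C, periostin and SPARC bind collagens and cell-surface integrins and are remodeled in wounds and tumors.

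The deposited matrices held 30340 cells and 198806160 UMIs (unique molecular identifiers, each counting 1 captured transcript), from 4014509 to 23726246 UMIs per tumor. Of these cells, 19533 (511 to 2341 per tumor) passed a minimum of 2500 UMIs, the upper UMI limit that the study used, and a mitochondrial share of no more than 20%. Cells were assigned to classes by gates on marker genes that hold none of the 10 matrix genes, and are named "-like" because they rest on transcripts alone. The gates gave 13717 epithelial-like, 2593 T-like, 1409 macrophage-like, 182 monocyte-like, 61 fibroblast-like and 17 endothelial-like cells, and 400 cells passed no gate. Fibroblast genes outside the gates were checked after each cell had been thinned to 2500 UMIs. Dcn, Lum and Dpt had a UMI in 96.7%, 80.3% and 85.2% of fibroblast-like cells and in at most 0.139% of epithelial-like cells. Gsn, the other gene checked, was less specific. It was found in 96.7% of fibroblast-like, 7.04% of epithelial-like and 29.4% of macrophage-like cells. Epcam, which defines the epithelial-like cells (98.9% with a UMI), was also found in 16.8% of T-like cells, whose levels serve below as the background for transcripts of other classes. Free RNA and doublets were not told apart. No barcode was shared within a pool, and 94 barcodes were shared between pools.

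The promoter sequences of the genes on which the results turn are shown first, with Col3a1 and Postn as genes highest in fibroblast-like cells and Col9a1 as a gene highest in epithelial-like cells. Each line gives the 250 bases upstream of a RefSeq transcription start of the GRCm38.p6 reference on the + strand, 5′ to 3′, and capitals mark the letters TATAAA. The tumors were of the FVB/N strain, and the sequences are those of the reference.
Col3a1, chr1:45311288-45311537: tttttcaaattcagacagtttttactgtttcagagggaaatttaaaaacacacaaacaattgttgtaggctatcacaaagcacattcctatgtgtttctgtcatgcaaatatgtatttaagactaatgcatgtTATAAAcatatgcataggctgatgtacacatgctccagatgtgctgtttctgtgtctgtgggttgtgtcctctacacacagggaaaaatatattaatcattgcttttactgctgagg
Postn, second listed start, chr3:54360857-54361106: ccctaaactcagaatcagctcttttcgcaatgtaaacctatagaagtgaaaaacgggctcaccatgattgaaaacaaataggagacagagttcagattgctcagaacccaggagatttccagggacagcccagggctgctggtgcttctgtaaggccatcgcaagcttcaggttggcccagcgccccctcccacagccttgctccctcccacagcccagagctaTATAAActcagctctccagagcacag
Col9a1, first listed start, chr1:24177360-24177609: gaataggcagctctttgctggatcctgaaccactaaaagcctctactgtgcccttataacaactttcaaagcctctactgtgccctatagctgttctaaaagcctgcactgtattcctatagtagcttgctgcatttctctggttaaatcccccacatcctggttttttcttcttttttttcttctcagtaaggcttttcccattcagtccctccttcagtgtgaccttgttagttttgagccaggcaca
Col9a1, second listed start, chr1:24194953-24195202: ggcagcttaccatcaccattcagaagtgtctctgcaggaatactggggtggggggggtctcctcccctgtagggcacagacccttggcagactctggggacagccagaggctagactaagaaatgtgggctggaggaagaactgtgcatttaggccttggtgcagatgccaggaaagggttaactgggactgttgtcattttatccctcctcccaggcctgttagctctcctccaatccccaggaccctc

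TATAAA, searched on both strands, was present in 4 of the 11 windows available for 8 of the 10 genes, those of Col3a1, the second start of Postn and both starts of Tnc, against 12.4% of all 32851 windows. The 2 Tnc windows overlap and hold the same site. Neither Col9a1 window held it. ACGTG or GCGTG, the core letters of the site bound by hypoxia-inducible factors, stood in the windows of Col1a2, Col4a1 and Col4a2, against 38.6% of all windows. Windows for Fn1 and Col1a1 were not analysed here. A match of letters is a description and says nothing about binding.

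Most UMIs of the fibrillar collagens, pooled over tumors, lay in fibroblast-like cells. Col3a1 (chr1:45311538-45349706, + strand, mm10), the chain of type III collagen, was at 117.37 UMIs per 10000 in fibroblast-like cells (95% Poisson interval 114.69 to 120.09, counting error only) and at 0.00616 in epithelial-like cells. Col1a1 (chr11:94936224-94953042, +) and Col1a2 (chr6:4504814-4541544, +), the 2 chains of type I collagen, were at 35.8 (34.3 to 37.3) and 40.2 (38.7 to 41.9) in fibroblast-like cells, and at 0.0134 and 0.00186 in epithelial-like cells. The 61 fibroblast-like cells, 0.312% of the kept cells, held 79.4% of all Col1a1 UMIs, 85.6% of Col1a2 and 87.1% of Col3a1 UMIs. Most of the rest lay in 721 mixed cells, which passed gates of more than 1 lineage (epithelial, endothelial, stromal, immune). The share varied by tumor. For Col1a1 it was 0 in isotype tumors 1, 2 and 6 and B20-4.1.1 tumor 2, with 18, 22, 24 and 17 UMIs in all. It was 32.0% in isotype tumor 5 and 48.7% in B20-4.1.1 tumor 9, and 100% in B20-4.1.1 tumor 4. In 17 endothelial-like cells no UMI of the 3 genes was found, for which the upper 95% Poisson limit was 0.384 UMIs per 10000.

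Within the fibroblast-like class the fibrillar genes were nearly uniform in presence and variable in level. Each of Col1a1, Col1a2 and Col3a1 had a UMI in 59 of 61 cells. The level of Col3a1 per cell had a median of 72.2 UMIs per 10000, with the middle of the cells between 42.1 and 122.61 and the highest at 479.51. By tumor, with 1 to 24 cells each, Col3a1 was at 0, 0, 52.1, 275.43 and 208.5 UMIs per 10000 in isotype tumors 1 to 5, and no fibroblast-like cell was found in the sixth. In B20-4.1.1 tumors it was at 63.0, 81.2, 397.64, 54.8, 238.66, 124.03, 124.2 and 222.23 (tumors 1 and 3 to 9), with no cell in tumor 2. The groups overlapped, and only 1 tumor had 20 or more of these cells, so treatment was not tested within the class.

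The 2 cells that lacked the fibrillar genes differed from the other 59 in further members. They were the single fibroblast-like cells of isotype tumors 1 and 2. Both had 0 UMIs of Col1a1, Col1a2 and Col3a1, and they held 32 and 63 of the 96 Col9a1 UMIs of the class and 16 and 95 Col4a1 UMIs.

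**Figure D1:**
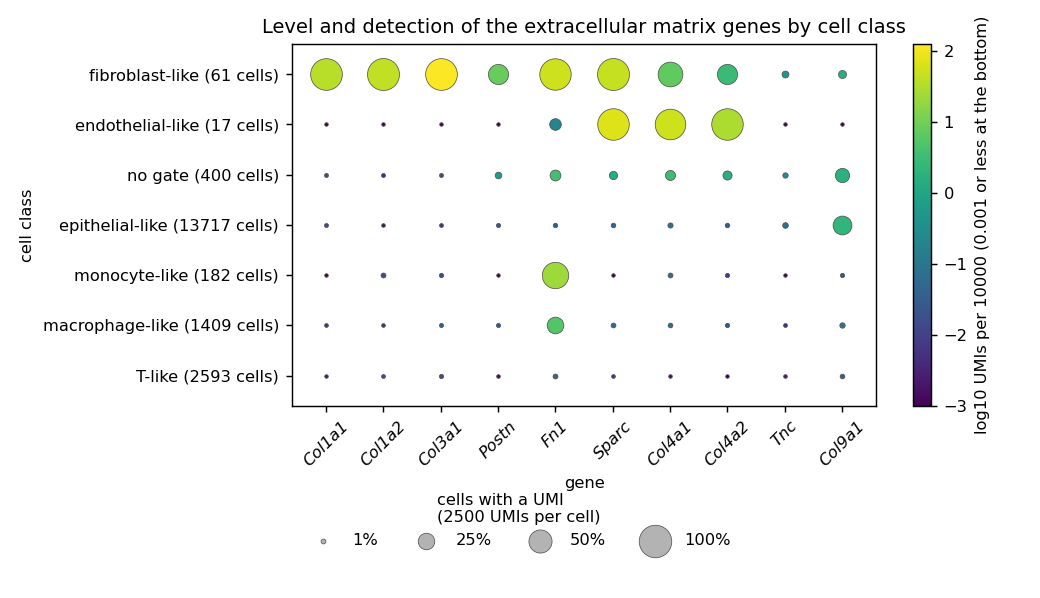
Level (color, log10 UMIs per 10000 of the summed cells of all tumors) and detection (dot area, percent of cells with a UMI after thinning to 2500 UMIs) of the 10 genes (columns) in 7 cell classes (rows, with the number of cells). The fibrillar collagens are bright only in fibroblast-like cells, Col4a1, Col4a2 and Sparc also in endothelial-like cells, Fn1 also in monocyte-like and macrophage-like cells, and Col9a1 is detected in 32.8% of epithelial-like cells.

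The glycoproteins were split among classes. Sparc (chr11:55394500-55423183, - strand), which binds collagen and is made by fibroblasts and vessels, was at 66.7 UMIs per 10000 (61.6 to 72.1) in endothelial-like and 45.3 (43.7 to 47.0) in fibroblast-like cells, against 0.0405 in epithelial-like cells. Postn (chr3:54361109-54391037, +), periostin, had a UMI in 29 of 61 fibroblast-like cells, with a class level of 8.13 UMIs per 10000 (7.43 to 8.87) and 65.96 in the highest cell. Tnc (chr4:63959785-64047015, -), tenascin-C, had a UMI in only 3 of the 61 fibroblast-like cells. Epithelial-like cells, 70.2% of the kept cells, held 89.6% of its UMIs. Its level was 0.498 UMIs per 10000 (0.338 to 0.707) in fibroblast-like cells, 0.265 in cells of no gate and 0.0851 in epithelial-like cells. After thinning it had a UMI in 3.28% of fibroblast-like and 1.83% of epithelial-like cells. Fn1 (chr1:71585520-71653200, -), fibronectin, was at 50.9 UMIs per 10000 (49.2 to 52.7) in fibroblast-like cells, and these held 23.7% of its UMIs, while macrophage-like cells held 40.8% and monocyte-like cells 20.2%.

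Col4a1 and Col4a2 lie head to head on chromosome 8 (chr8:11198423-11312826 on the - strand and chr8:11312805-11449287 on the + strand), and the annotated genes share 22 bases at their starts. Together their products form the common type IV collagen molecule. In the 17 endothelial-like cells they were at 52.7 (48.2 to 57.4) and 30.1 (26.7 to 33.7) UMIs per 10000, and they had a UMI in 15 and 16 of these cells. In fibroblast-like cells they were at 7.02 and 2.91 UMIs per 10000, and in T-like cells at 0.00162 and 0. Endothelial-like cells nevertheless held only 18.8% of all Col4a1 UMIs, since they were few. Epithelial-like cells held 32.7% and cells of no gate 23.5%.

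Fibroblast-like and epithelial-like cells were compared over the 4 tumors, all of them B20-4.1.1 tumors, that had at least 5 fibroblast-like cells. All 10 members were tested and all 10 passed the threshold (edgeR quasi-likelihood test, Benjamini-Hochberg adjusted p under 0.05), where 28.2% of the 10426 genes tested did (11.2% higher in fibroblast-like cells, 17.0% lower). Col3a1 was at 63.0, 54.8, 124.03 and 124.2 UMIs per 10000 in the fibroblast-like cells of tumors 1, 5, 7 and 8, and at 0.00511, 0.00796, 0.00971 and 0.0114 in the epithelial-like cells of the same tumors. Every fibroblast value lay above every epithelial value.

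In fibroblast-like cells 9 members were higher. The log2 fold changes were 13.30 for Col1a2 (SE 0.378), 13.06 for Col3a1 (SE 0.373), 10.77 for Col1a1, 10.23 for Sparc, 9.69 for Fn1, 7.99 for Postn, 6.33 for Col4a1, 6.05 for Col4a2 and 2.30 for Tnc (SE 0.592). The 27 Tnc UMIs of the fibroblast-like cells in this comparison all lay in 1 of the 6 cells of tumor 7, and the other 3 tumors had 0. Col9a1 was lower by 5.90 on the log2 scale (SE 0.689), on 1 UMI in the fibroblast-like cells of the 4 tumors, which puts the level of epithelial-like cells at 48.4 times theirs (95% Poisson interval 8.69 to 1911, counting error only). These folds, SEs and shares of all genes are from edgeR's default fit. With bias-adjusted deviances 1186 genes were higher and 1660 lower, the SE was 0.367 for Col1a2, 0.509 for Fn1 (0.310 by default) and 0.889 for Tnc (log2 fold change 2.64), and all 10 members were called, with edgeR adjusted p-values between 2.14e-14 (Col1a2) and 0.0382 (Tnc). The call for Tnc was lost without the tumor as a block (2.65, adjusted p = 0.088, edgeR), and with DESeq2 its sign turned (-1.28, adjusted p = 0.747). With classes taken from clusters, over 10 tumors, Col9a1 was at -1.14 (adjusted p = 0.144, edgeR) and 6 of 7 members tested were called. The fibroblast-like cluster held 113 cells, of which 52.2% were fibroblast-like by gate.

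Most of the wider matrix followed the fibrillar genes in this comparison. Of 166 further genes listed by function, 122 were tested, 84 were higher and 18 lower in fibroblast-like cells, with a median log2 difference of 3.88 against -0.33 over all genes tested. Of the proteoglycans 7 of 8 tested were higher, as were 17 of 21 glycoproteins and matricellular proteins. The same held for 16 of 21 collagen synthesis and cross-linking enzymes and 19 of 21 proteases and inhibitors. Of 13 interstitial collagens 9 were higher and 3 lower. Basement membrane genes were divided, with 9 higher and 6 lower of 17 tested. Col5a2, a chain of the fibril-nucleating type V collagen, was 13.92 higher on the log2 scale (SE 0.423), and the microfibril protein gene Mfap5 13.63 (SE 0.384). Lama2, a laminin chain, and Mfap2, another microfibril gene, were 13.19 and 13.01 higher. Receptors were divided as well, with 7 higher and 6 lower of 21 tested. Itga6, the α6 chain of laminin-binding integrins, and Itgb8 were lower, as were Col9a3, a partner chain of Col9a1, and Smoc1, and the size of these 4 differences depends on the prior count because fibroblast-like cells had almost none of their UMIs.

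Col9a1 (chr1:24177610-24252684, + strand) encodes the α1 chain of type IX collagen, a fibril-associated collagen best known from cartilage. Here it was mainly an epithelial transcript, though cells of no gate were at 1.83 and mixed cells at 1.66 UMIs per 10000. Among the cells of no gate, the 29 with 3 or more Col4a1 UMIs, described below, were at 7.75. Epithelial-like cells held 94.2% of its UMIs, at 2.15 UMIs per 10000 (2.13 to 2.18), and 32.8% of them had a UMI after thinning (57.4% unthinned, median depth 8736 UMIs). In T-like cells, which stand for the background, it was at 0.0405 UMIs per 10000 and in 0.887% of cells after thinning (1.74% unthinned, median depth 4063 UMIs). Over 15 tumors it was 5.39 higher on the log2 scale in epithelial-like than in T-like cells (SE 0.172, edgeR adjusted p = 2.91e-18). It was the only member that passed the filter on low counts in that comparison, in which 76.9% of the 10034 genes tested were called. Without the filter 8 of 10 members were called.

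Within the epithelium Col9a1 was graded rather than confined to a few cells. Of the 11 epithelial-like clusters, cluster 0 was highest at 4.63 UMIs per 10000 and cluster 18 lowest at 0.169. The 1% of epithelial-like cells with the most UMIs of the gene held 9.70% of its UMIs. For Tnc the same share of cells held 46.8%, for Col4a1 65.3% and for Fn1 79.3%. This measure rises where a gene has few UMIs, so it does not compare members of unlike abundance. Col9a1 had 28994 UMIs, Tnc 1146, Col4a1 878 and Fn1 580. For Col1a1, with no cell above 2 UMIs, the value was 80.7%. For Fn1, 34 cells with 3 or more UMIs held 58.6% of the epithelial UMIs, and for Postn 24 such cells held 68.2%.

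Epithelial-like cells with a UMI of Krt14, a keratin of basal cells, differed from the others in several members. The percentages pool the thinned cells of all 15 tumors, the direction is given for the 13 tumors with at least 20 Krt14-positive cells, and neither was tested. Col9a1 had a UMI in 17.3% of 974 Krt14-positive cells and in 33.95% of 12743 others, and it was lower in the Krt14-positive cells of 13 of 13 tumors. Tnc was found in 4.93% and 1.59% (higher in 10 of 13 tumors), Sparc in 1.85% and 0.691% (10 of 13), Postn in 1.34% and 0.353% (9 of 13), Fn1 in 1.85% and 0.612% (9 of 13), and Col4a1 in 2.57% and 1.22% (8 of 13). For the remaining members the pooled share was also higher but most single tumors were not: Col4a2 was found in 1.03% and 0.675% (higher in 5 of 13 tumors), Col3a1 in 0.513% and 0.173% (4 of 13), Col1a1 in 0.411% and 0.283% (3 of 13) and Col1a2 in 0.103% and 0.0314% (1 of 13). Krt5 and Acta2, further genes of basal and contractile cells, were detected in only 0.051% and 0.0875% of epithelial-like cells, and Myh11 in none.

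Col9a1 was the member that changed with treatment in epithelial-like cells. Isotype tumors 1 to 6 were at 3.24, 3.03, 3.36, 2.43, 2.48 and 2.46 UMIs per 10000 (lowest 2.43, median 2.76, highest 3.36), and B20-4.1.1 tumors 1 to 9 at 1.504, 1.12, 1.40, 1.39, 1.31, 2.07, 0.892, 1.65 and 1.58 (lowest 0.892, median 1.40, highest 2.07). The groups did not overlap: all 9 B20-4.1.1 tumors were below the lowest isotype tumor. The mean was 2.84 ± 0.425 (SD, n = 6) against 1.44 ± 0.334 (SD, n = 9), and the log2 difference was -0.90 (SE 0.127, edgeR adjusted p = 0.000701). Of the 10 members 8 were tested and 1 was called, where 14.8% of the 12291 genes tested were called (7.6% higher and 7.17% lower).

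Detection and the level in each cluster had the same direction. Both are drawn from the same UMIs and tumors as the test, so they describe the fall and do not test it again. After thinning, 37.1% to 43.0% of the epithelial-like cells of isotype tumors and 16.9% to 33.7% of those of B20-4.1.1 tumors had a Col9a1 UMI (59.7% to 69.1% and 41.8% to 57.1% unthinned). With the cells of all tumors pooled, its level was lower under B20-4.1.1 in 11 of 11 epithelial-like clusters, for example at 3.23 against 4.94 UMIs per 10000 in cluster 0 and at 0.294 against 0.655 in cluster 6. In T-like cells Col9a1 was at 0.0397 to 0.184 UMIs per 10000 in isotype and 0 to 0.0776 in B20-4.1.1 tumors. By pool the epithelial means were 3.21 and 2.46 in isotype and 1.34, 1.59 and 1.38 in B20-4.1.1. With the pool as a random block the difference was -0.95 with an adjusted p of 0.0946 (limma voom, consensus correlation 0.536), and over the 5 pool sums -0.96 with an adjusted p of 0.219 (edgeR), so the call did not hold with the pool as the unit of variation.

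Cell quality moved with treatment as well. The mean mitochondrial share of epithelial-like cells was 4.23% to 6.86% in isotype tumors (median 5.79%) and 3.08% to 4.38% in B20-4.1.1 tumors (median 3.63%). Their median depth was 7591 to 9494.5 UMIs in isotype tumors (median 8126) and 7443.5 to 11898 in B20-4.1.1 tumors (median 10216). Over all deposited cells the median depth was 2192, 2423 and 2315.5 UMIs in isotype tumors 1 to 3 and 6582, 6034 and 6577 in isotype tumors 4 to 6. B20-4.1.1 tumors were at 2819 to 9834.5. With cells limited to 10% mitochondrial UMIs the Col9a1 difference was -0.86 (edgeR adjusted p = 0.00102), and in thinned cells -0.94 (edgeR adjusted p = 0.000418).

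**Figure D2:**
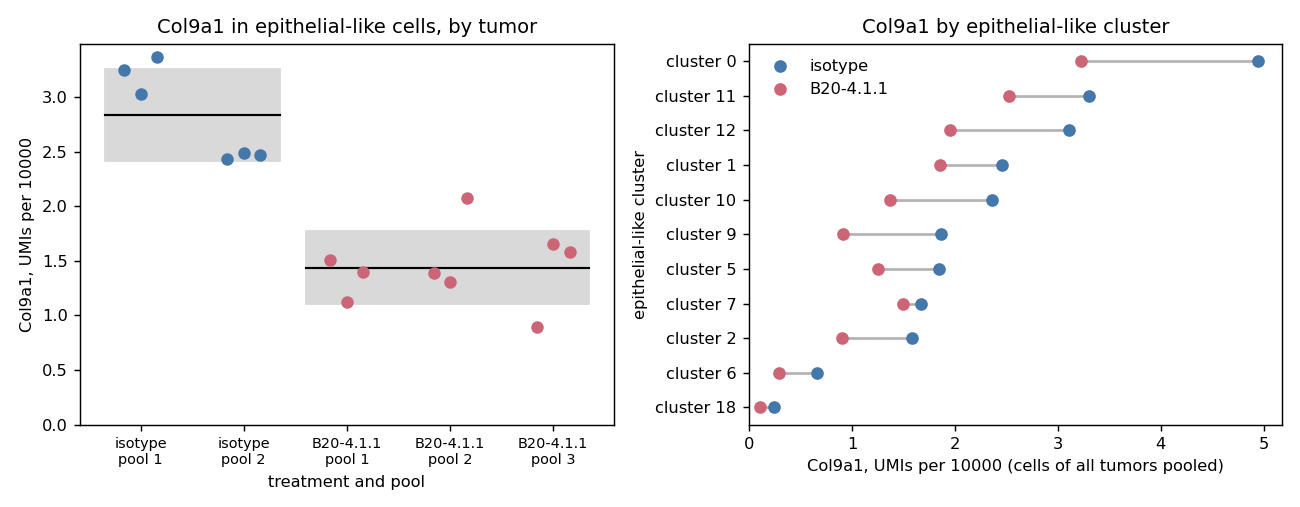
Left, Col9a1 in the epithelial-like cells of each tumor (points, UMIs per 10000) by treatment and pool, with the mean (line) and SD (grey band) of the 6 isotype and 9 B20-4.1.1 tumors. Right, Col9a1 in each of 11 epithelial-like clusters (UMIs per 10000, cells of all tumors pooled). All 9 B20-4.1.1 tumors lie below 2.43, and every cluster is lower in B20-4.1.1.

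The 3 genes that followed Col9a1 most closely over the 15 tumors, by Pearson's r of log2 CPM (counts scaled to a common library size) among 6555 genes and given as a description, were mt-Cytb at 0.965, Npnt at 0.939 and Txnrd1 at 0.929. The points share libraries and depth and fall into the 2 treatment groups. Within isotype tumors r was 0.698, 0.864 and 0.431, and within B20-4.1.1 tumors 0.902, 0.859 and 0.631. Npnt encodes nephronectin, a basement membrane ligand of integrin α8β1, and mt-Cytb is a mitochondrial transcript. Npnt was at 1.06 to 1.97 UMIs per 10000 in isotype and 0.505 to 0.955 in B20-4.1.1 tumors, groups that did not overlap.

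The partner chains of type IX collagen, singled out after their values were seen, did not pass the test. Col9a2 was at 0.425 to 0.988 UMIs per 10000 in isotype tumors (median 0.743) and 0.210 to 0.841 in B20-4.1.1 tumors (median 0.517), and its log2 difference was -0.41 (SE 0.22, edgeR adjusted p = 0.212). Col9a3 was at 0.556 to 0.849 (median 0.736) and 0.255 to 0.813 (median 0.634), and its log2 difference was -0.15 (SE 0.154, edgeR adjusted p = 0.519). Both pairs of groups overlapped.

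None of the other 7 members tested in epithelial-like cells passed the threshold. Fn1 was at 0.0117 to 0.0684 UMIs per 10000 in isotype tumors (median 0.0331) and 0.00318 to 0.111 in B20-4.1.1 tumors (median 0.0382), and its log2 difference was 0.68 (SE 0.515, edgeR adjusted p = 0.373). Tnc was at 0.0609 to 0.105 (median 0.0710) and 0.0119 to 0.239 (median 0.0939), with 0.47 (SE 0.344, edgeR adjusted p = 0.359), and its highest value was that of B20-4.1.1 tumor 8. The groups overlapped for both genes. Sparc had a log2 fold change of -0.44 (SE 0.371), Postn of -0.20 (SE 0.469) and Col1a1 of 0.03 (SE 0.326), with edgeR adjusted p-values from 0.431 to 0.972. Col1a2 and Col3a1, with 25 and 83 UMIs in all epithelial-like cells, were not tested.

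**Figure D3:**
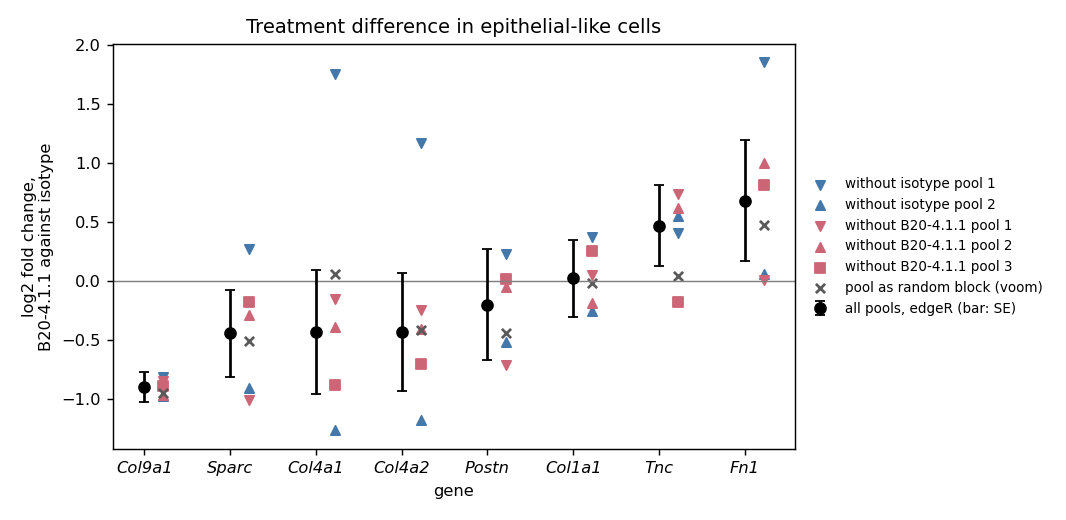
Log2 fold change, B20-4.1.1 against isotype, in epithelial-like cells for the 8 members tested: all pools (black, bar 1 SE), each pool left out in turn (colored), and the pool as a random block (cross). Col9a1 stays between -0.97 and -0.81 whichever pool is left out, while Col4a1 moves from -1.26 to 1.75.

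For Col4a1 the isotype pools differed more from each other than the treatments did. Isotype tumors 1 to 3 (pool 1) were at 0.160, 0.150 and 0.150 UMIs per 10000 and isotype tumors 4 to 6 (pool 2) at 0.0147, 0.0245 and 0.0111. B20-4.1.1 tumors lay between 0.0227 and 0.127, with a median of 0.0478. Every tumor of isotype pool 1 was above every B20-4.1.1 tumor, and 2 of the 3 tumors of isotype pool 2 were below all of them. The log2 fold change was -0.43 for Col4a1 (SE 0.527, edgeR adjusted p = 0.603) and -0.43 for Col4a2 (SE 0.498, edgeR adjusted p = 0.581). Without isotype pool 1 they were 1.75 (adjusted p = 0.0597) and 1.17 (adjusted p = 0.227), and without isotype pool 2 -1.26 (adjusted p = 0.00897) and -1.17 (adjusted p = 0.0363, edgeR), so that the pool decided the direction.

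The Col4a1 signal came from a small number of cells. Of the epithelial-like cells 70 had 3 or more Col4a1 UMIs and held 50% of the class's Col4a1 UMIs, and 42 of them were in isotype tumors 1 to 3 (12, 20 and 10). Col4a2 had a UMI in 38 of the 70 cells. Over all epithelial-like cells, thinned to one depth, Col4a2 had a UMI in 18.2% of 181 cells with Col4a1 and in 0.465% of the rest, and Postn in 10.4% of 106 cells with Sparc and in 0.345% of the rest. These pairs were picked after the values of all member pairs were seen. Other pairs were also found together more often than their separate shares give, so the excess was not confined to the pairs named first. Col4a1 and Sparc were found together in 10 cells where their shares give 1.40, and Col4a1 and Tnc in 13 against 3.31. For Col4a2 and Sparc it was 7 against 0.742, and for Fn1 and Tnc 6 against 1.76. Some further pairs were found together about as often as their separate shares give, or less often. Col9a1 and Sparc shared 31 cells against 34.7, and Col9a1 and Tnc 52 against 82.2.

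A second source lay outside all gates. Of the 400 cells of no gate 29 had 3 or more Col4a1 UMIs, and they held 98.4% of the Col4a1 UMIs of those cells and 23.2% of all Col4a1 UMIs. Of the 29 cells 28 were from isotype tumors 1, 2 and 3 (16, 9 and 3) and 1 was from B20-4.1.1 tumor 4. Col4a1 was at 18.5, Col4a2 at 9.71, Sparc at 8.61, Col9a1 at 7.75, Fn1 at 6.98 and Postn at 3.71 UMIs per 10000 in them, while Col1a1 had 1 UMI and Col1a2 and Col3a1 had 0. Col9a1 had a UMI in 28 of the 29. Their leading genes by level against the other cells of no gate included 1500015O10Rik (34.4 UMIs per 10000), Mgp, the matrix Gla protein (32.2), the proteoglycan Vcan (10.2) and Ptn (9.38). Acta2 had a UMI in 16 of them, Epcam in 12, Krt8 in 6 and Krt14 in 1, and Pecam1, Cdh5, Kdr, Rgs5, Notch3, Pdgfra and Dcn had none. Of the 29, 21 fell in the cluster that held most fibroblast-like cells. They are given no cell type name.

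**Figure D4:**
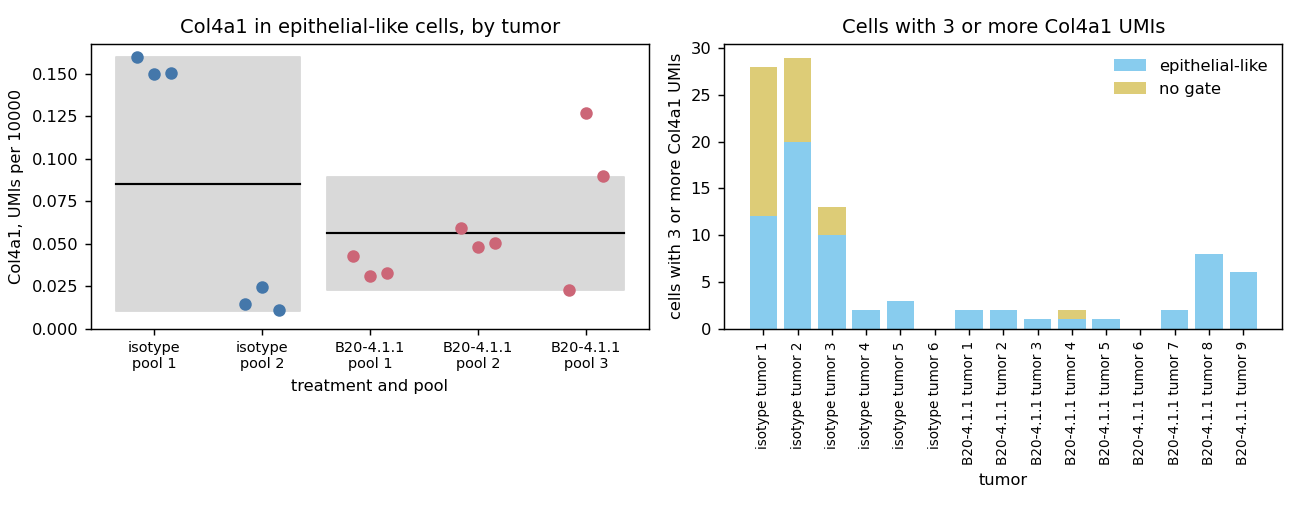
Left, Col4a1 in the epithelial-like cells of each tumor (points, UMIs per 10000) by treatment and pool, with the mean (line) and SD (grey band) of each treatment. Right, number of cells per tumor with 3 or more Col4a1 UMIs among epithelial-like cells and cells of no gate. Isotype tumors 1 to 3 hold 42 of 70 such epithelial-like cells and 28 of 29 such cells of no gate.

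Other matrix genes of the fixed lists changed in both directions in epithelial-like cells. Of 91 tested, 8 were higher and 11 lower in B20-4.1.1 tumors, and the median log2 difference was -0.09 against -0.0058 over all genes. Over all 12291 genes 7.6% were higher and 7.17% lower, and with the pool as a random block 1 of the 91 was called (limma voom). Among the collagen synthesis and cross-linking enzymes 3 of 15 rose, among matrix receptors 3 of 19 fell, and of the basement membrane genes 2 of 17 fell. Of the glycoproteins and matricellular proteins 2 of 14 rose and 3 fell, and of the proteases and inhibitors 3 of 16 rose and 3 fell. None of these counts was tested against the share over all genes. No interstitial collagen of 8 tested and no proteoglycan of 2 tested passed with edgeR or DESeq2 (2 and 1 had an unadjusted p under 0.05 with edgeR, all higher).

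P4ha1, a prolyl 4-hydroxylase subunit that modifies collagen chains, had a level of 0.155 ± 0.0578 UMIs per 10000 under isotype (SD, n = 6), against 0.221 ± 0.0533 under B20-4.1.1 (SD, n = 9). It rose by 0.66 on the log2 scale (edgeR adjusted p = 0.0245). P3h4, of the prolyl 3-hydroxylase family, went from 0.156 ± 0.0181 to 0.238 ± 0.0558 (0.64, adjusted p = 0.00418, edgeR). Igfbp7 rose by 0.59 (adjusted p = 0.0336, edgeR) and the lysosomal protease gene Ctsl by 0.43 (adjusted p = 0.0129, edgeR).

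The genes that fell most were Fbln2, fibulin-2, from 0.373 ± 0.184 to 0.161 ± 0.0656 (-1.04, adjusted p = 0.0189, edgeR), and Npnt, from 1.53 ± 0.431 to 0.783 ± 0.132 (-0.87, adjusted p = 0.000868, edgeR). The integrin chains Itgb5 (-0.64, adjusted p = 0.0262, edgeR) and Itga8 (-0.56, adjusted p = 0.0160, edgeR) also fell, the latter being the α8 chain of the receptor for nephronectin. With the pool as a random block the adjusted p-values of these 8 genes were 0.0929 to 0.615 (limma voom).

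Fibronectin transcripts were prominent in myeloid cells. Fn1 was at 22.96 UMIs per 10000 (22.1 to 23.8) in monocyte-like cells, with a UMI in 65.4% of cells after thinning (73.1% unthinned), at 5.28 (5.14 to 5.42) in macrophage-like cells with 25.3% (34.4% unthinned), and at 0.0454 in T-like cells with 1.08%. Median depths were 5625.5, 6473 and 4063 UMIs per cell. Over 14 tumors Fn1 was 7.10 higher on the log2 scale in macrophage-like than in T-like cells (SE 0.276, edgeR adjusted p = 6.69e-16). It was the only member that passed the filter in this comparison, in which 68.9% of 6110 genes were called, and 5 of 10 members were called without the filter. Of the listed matrix genes 34 were tested, 32 were higher in macrophage-like cells and 1 lower, led by the macrophage elastase gene Mmp12 (log2 difference 8.04), Col14a1 (7.63), Itga9 (7.32) and Tgfbi (7.27).

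Within the myeloid cells Fn1 followed monocyte markers. In the macrophage-like and monocyte-like cells together, it was at 2.48, 2.73 and 6.47 UMIs per 10000 where 0, 1 and 2 of the 8 monocyte markers had a UMI, at 26.1 with 3 markers and at 24.9 with 4 or more. The share of cells with an Fn1 UMI went from 23.6% to 83.5% over the same order. These groups were cut by the number of markers, which also grows with depth. Some cells with 3 or more monocyte markers were macrophage-like, since a cell passing both gates went to the class with the larger share of its markers.

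Treatment gave no call for Fn1 in macrophage-like cells. Isotype tumors 1 to 6 were at 3.71, 1.39, 3.53, 10.36, 19.52 and 3.17 UMIs per 10000, and the 8 B20-4.1.1 tumors with at least 20 cells at 5.23, 2.54, 4.73, 2.50, 9.41, 6.61, 11.08 and 8.30. The groups overlapped, with the lowest and the highest tumor both isotype. The mean was 6.95 ± 6.89 (SD, n = 6) against 6.30 ± 3.14 (SD, n = 8), and the log2 fold change was -0.09 (SE 0.464, edgeR adjusted p = 0.968). Of 6595 genes tested 0.0758% were called, and Fn1 was the single member tested.

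The result for Fn1 turned with the pools and the definition of the class. Isotype pool 2 had a mean of 11.0 UMIs per 10000 and isotype pool 1 of 2.88, against 3.88, 5.55 and 8.66 in the B20-4.1.1 pools. Without isotype pool 2 the log2 fold change was 1.22 (adjusted p = 0.0783, edgeR). With classes taken from clusters it was 1.33 (adjusted p = 0.0207, edgeR) and was called. Gated macrophage-like cells within cluster 4, which held 91.8% of them in isotype and 92.6% in B20-4.1.1 tumors, were at 2.26 and 4.15 UMIs per 10000, by pool at 2.22 and 2.35 in isotype and at 3.13, 2.53 and 6.26 in B20-4.1.1. Those in cluster 13, which carried no class name, were at 37.9 (53 cells) and 26.1 (41 cells), by pool at 21.1 and 43.4 in isotype and at 33.4, 17.9 and 31.2 in B20-4.1.1. In this cluster the B20-4.1.1 value was thus the higher without isotype pool 2.

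**Figure D5:**
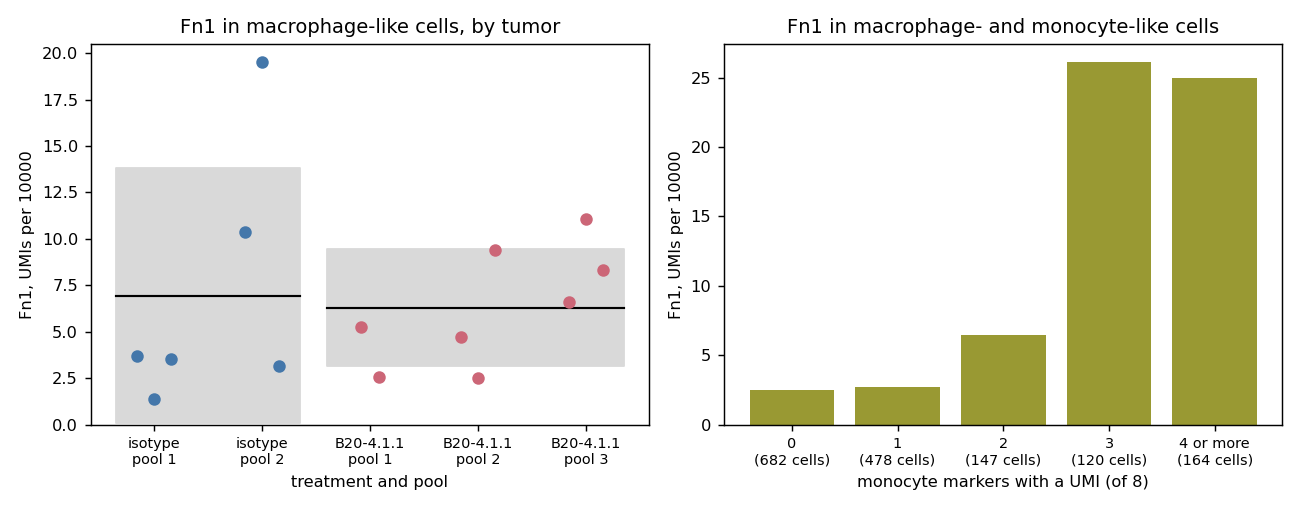
Left, Fn1 in the macrophage-like cells of each tumor with at least 20 such cells (points, UMIs per 10000) by treatment and pool, with the mean (line) and SD (grey band) of each treatment. Right, Fn1 in macrophage-like and monocyte-like cells by the number of monocyte markers with a UMI. The isotype tumors range from 1.39 to 19.5, and Fn1 is at 26.1 with 3 markers against 2.48 with none.

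In T-like cells no member passed the filter on low counts. Of the 5752 genes tested there 0.0% were called by edgeR (924 at an unadjusted p under 0.05), and 24 by DESeq2. The difference between the treatment effects in macrophage-like and epithelial-like cells was tested for Col9a1 (-1.40, SE 0.595, edgeR adjusted p = 0.481, unadjusted p = 0.0279) and Fn1 (-0.43, SE 0.717, edgeR adjusted p = 0.922). Neither was called by edgeR or DESeq2, where 0.053% of 9437 genes were called by edgeR. Of the listed matrix genes none was called in macrophage-like cells (41 tested, 9 at an unadjusted p under 0.05, 1 called by DESeq2) or in T-like cells (18 tested, 6 at an unadjusted p under 0.05, none by DESeq2).

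Because fibroblast-like cells held most of the fibrillar collagen UMIs, their share was compared between treatments, and it was higher under B20-4.1.1 over tumors. They made up 0 to 0.244% of the cells of isotype tumors (mean 0.113% ± 0.0896, n = 6) and 0 to 2.06% of those of B20-4.1.1 tumors (0.542% ± 0.608, n = 9), a difference of 0.429 percentage points (exact permutation test over tumors, two-sided p = 0.0192). B20-4.1.1 tumor 1 alone held 24 of the 61 cells. With the pool as the unit the difference was 0.433 points, and the pools did not overlap (0.0908% and 0.117% in isotype, 0.365% to 0.789% in B20-4.1.1). The exact permutation p was 0.2, the smallest that 2 against 3 pools can give, so this test could not reach 0.05. With classes from clusters the difference was 0.255 points (exact permutation p = 0.421). That class was broader, with 113 cells and means of 0.477% in isotype and 0.732% in B20-4.1.1 tumors. It took in 21 of the 29 cells of no gate with 3 or more Col4a1 UMIs. Over all kept cells of a tumor, Col1a1 was at 0.0112 to 0.142 UMIs per 10000 in isotype and 0.0148 to 0.806 in B20-4.1.1 tumors, and the groups overlapped. Endothelial-like cells made up 0.107% ± 0.105 of isotype and 0.0664% ± 0.0949 of B20-4.1.1 tumors, 17 cells in all, too few for a test.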

How the data were processed

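Single-cell RNA-seq of 15 tumors was analysed from the deposited matrices. The authors multiplexed 3 tumors per pool and aligned and counted reads with Cell Ranger (6.1.2 per the file headers, mm10 per the labels). Each tumor's deposited table holds unnormalized UMI counts of 31053 genes. The 12 features of the multiplexing oligonucleotides in it were left out. Further counts were made in Python 3.11.15 (scanpy 1.11.5) and R 4.3.3. Cells with at least 2500 UMIs, no more than the study's upper limit, and at most 20% mitochondrial UMIs were kept. No doublet caller was run. A cell passed the gate of a class when 3 of its markers (4 of lists longer than 8 genes) had a UMI. Cells passing gates of several lineages (epithelial, endothelial, stromal, immune) were called mixed. Within a lineage a cell went to the class with the largest share of its markers, so a macrophage-like cell could also pass the monocyte gate. Counts were summed per class and tumor (at least 20 cells, or 5 for fibroblast-like cells, in at least 4 tumors) and tested with edgeR 4.0.16 (quasi-likelihood F test, TMM, filterByExpr, two-sided, Benjamini-Hochberg over all genes, 0.05). Comparisons of classes within tumors had the tumor as a block. The scripts were tested on simulated data. Alternatives were DESeq2 1.42.0, no filter, other cell limits, thinned cells, cluster classes, each pool left out, limma 3.58.1 voom with the pool as a random block, and pool sums. All 10 members were named, and of the listed matrix genes up to 4 per direction with the largest changes at an average log2 CPM of at least 4. The members and lists were chosen with earlier results of these data known. Positions are GENCODE gene models on mm10. Intervals cover counting error only.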

Additional observations from a re-analysis of the deposited data

Results flagged for a closer look

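Among the percentages of fibroblast-like cells in B20-4.1.1 tumors, tumor 1 stood far from the others at 2.06%, by Dixon's test at 95% (20 groups of tumors were tested so, of which chance flags about 1 in 20). Without its pool the mean of the B20-4.1.1 tumors was 0.426%, against 0.113% in isotype tumors. Of all Col4a1 UMIs 23.5%, and of all Col4a2 UMIs 24.9%, lay in the 400 cells that passed no gate and entered no comparison of gated classes. Of these cells 29 had 3 or more Col4a1 UMIs, and 28 of the 29 were from isotype tumors 1 to 3. Of the 29, 21 lay in the cluster named fibroblast-like and so entered the comparisons by cluster. The source of these cells was not tested.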

How the results depend on the processing

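The fibroblast-like share differed by 0.255 points (exact permutation p = 0.421) with classes from clusters and by 0.433 points (exact permutation p = 0.2, the smallest it can give) with the pool as the unit. It differed by 0.313 to 0.512 points with 1 pool left out, and without either isotype pool (0.437 and 0.422 points) the exact permutation p was 0.0909. In epithelial-like cells the number of members that treatment changed was 0 with the pool as a random block and 0 with pool sums, and 1 to 3 with a pool left out. Without isotype pool 2 the count of 3 added Col4a1 and Col4a2. Over all genes the calls, 934 higher and 881 lower, were 2858 and 2671 without isotype pool 2, 260 and 156 without isotype pool 1, 32 and 11 with the random block, and 0 with pool sums (1355 at an unadjusted p under 0.05, edgeR). In macrophage-like cells 1 member was called with cluster classes. Between classes, 8 members were called for epithelial-like against T-like cells without the filter (1 to 2 with a pool left out), 5 for macrophage-like against T-like cells without the filter, and 6 for fibroblast-like against epithelial-like cells with cluster classes, where fewer members were tested.

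Signs turned on the log2 scale, for Tnc in fibroblast-like cells, which had been called, and for members that had not. In epithelial-like cells the latter were Postn (-0.71 to 0.23 with a pool left out, above 0 without isotype pool 1 and B20-4.1.1 pool 3, and 0.27 thinned), Tnc (-0.18 to 0.74 with a pool left out, below 0 without B20-4.1.1 pool 3), Col4a1 (-1.26 to 1.75 with a pool left out, 0.063 with the random block), Col4a2 (-1.17 to 1.17) and Sparc (-1.01 to 0.27), these 3 above 0 without isotype pool 1, and Col1a1 (-0.25 to 0.37 with a pool left out, -0.12 from 1000 UMIs, -0.014 with the random block). Fn1 in macrophage-like cells was at 1.33 with cluster classes (edgeR adjusted p = 0.0207), 0.33 with monocyte-like cells joined, -0.79 to 1.22 with a pool left out (lowest without isotype pool 1, highest without isotype pool 2), 0.305 with the random block and 0.087 thinned. The difference of its treatment effects between classes was 0.064 with DESeq2, 0.94 with cluster classes, 0.035 from 1000 UMIs and -2.44 to 1.22 with a pool left out. Tnc in fibroblast-like cells, at 2.30 in edgeR, was at -1.28 with DESeq2. The cause was not tested.

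The joined myeloid class and bias-adjusted deviances were added after seeing the data. No paired analysis was possible because the replicate numbers only name pools, and every pool holds 1 treatment. The fibroblast comparison could not be repeated without a pool, and endothelial-like cells could not be compared at 20 or 5 cells in 4 tumors. Limits of depth are greatest there, with 17 cells.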
